A study of Mus musculus with 6 samples.

Results

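The SOX family of transcription factors was examined through 10 of its genes, Sox2, Sox4, Sox5, Sox6, Sox9, Sox10, Sox11, Sox12, Sox17 and Sox18, in fetal and adult mouse mammary cells. Every non-control probe whose accession belonged to one of these genes was taken, which gave 14 probes, 2 each for Sox4, Sox5, Sox11 and Sox17 and 1 for each of the others, out of 27229 probes matched to 20656 genes. The 10 other SOX genes found on the array were kept for comparison.

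All cells came from mammary glands of female C57Bl6J mice, sorted by flow cytometry and used fresh. Adult basal cells were from mice 8 to 12 weeks old and lacked CD31, CD45, Ter119 and BP-1 on their surface while carrying EpCAM and CD49f. Fetal cells were from embryonic day 18.5 (E18.5), lacked CD31, CD45 and Ter119, and carried CD49f with a higher level of EpCAM. The 2 populations therefore differed in age, in sort gate and in digestion of the tissue, which was overnight for the adult glands and shorter for the fetal ones, and these cannot be told apart. Each population had 3 biological replicates, and each RNA was hybridized in a single color to 1 Agilent SurePrint G3 Mouse GE array. Whether a replicate held 1 animal or several was not given in the sources used here.

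SOX proteins share with the sex-determining factor SRY a DNA-binding HMG box, which bends DNA in the minor groove, and they act with partner factors that differ between cell types. They are sorted into groups by the likeness of this box. Group B1 (Sox2) is known for pluripotent and neural progenitor cells, group C (Sox4, Sox11, Sox12) for progenitors of many embryonic tissues, group D (Sox5, Sox6) for cartilage together with Sox9, group E (Sox9, Sox10) for cartilage, neural crest and glands, and group F (Sox17, Sox18) for endothelium and endoderm. In the mammary gland, Sox9 and Sox10 are best known for stem and progenitor cells, and Sox4 and Sox11 for roles studied mainly in breast tumors and in the embryonic gland.

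The group C genes carried both the largest SOX difference and a pair of small ones in the opposite direction, so the 250 bases before the start of each are shown for these 3 genes. They are from RefSeq on the GRCm38.p6 build, all on the minus strand, and read 5′ to 3′. Capitals mark matches to the GC box (GGGCGG or, on the other strand, CCGCCC) and to the CCAAT box (CCAAT or ATTGG).
Sox11, chr12:27342719-27342968: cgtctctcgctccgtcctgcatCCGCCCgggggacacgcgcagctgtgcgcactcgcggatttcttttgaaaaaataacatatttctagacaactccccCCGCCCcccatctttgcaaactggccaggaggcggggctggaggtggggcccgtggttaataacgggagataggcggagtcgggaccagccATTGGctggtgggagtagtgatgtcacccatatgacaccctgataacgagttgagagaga
Sox4, chr13:28953700-28953949: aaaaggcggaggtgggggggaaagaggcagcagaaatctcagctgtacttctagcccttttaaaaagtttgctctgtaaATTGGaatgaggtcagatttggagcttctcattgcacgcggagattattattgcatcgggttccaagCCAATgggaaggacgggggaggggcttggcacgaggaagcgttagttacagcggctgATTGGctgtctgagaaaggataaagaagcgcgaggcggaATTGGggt
Sox12, chr2:152398047-152398296: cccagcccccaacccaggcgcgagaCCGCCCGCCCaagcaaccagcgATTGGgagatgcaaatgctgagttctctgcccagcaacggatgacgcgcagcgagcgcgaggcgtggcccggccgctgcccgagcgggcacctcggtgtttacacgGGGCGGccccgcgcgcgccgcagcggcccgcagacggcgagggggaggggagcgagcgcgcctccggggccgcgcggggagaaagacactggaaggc

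A GC box was found 2 times before Sox11 and 3 times before Sox12, where 2 of the matches overlap, and no match lay before Sox4, beside 32.7% of all 32851 RefSeq promoter windows of this length that held at least 1. The CCAAT box was found 4 times before Sox4 and 1 time each before Sox11 and Sox12. At least 1 match was held by 33.9% of all windows, and 4 or more by 0.84%. On either strand the SOX motif AACAAT, held by 9.42% of all windows, was in none of these 3, and neither was the TATA box, spelled TATAAA and held by 12.4%. The windows of Sox12, Sox11 and Sox4 held 35, 17 and 11 CpG dinucleotides, beside a median of 6 over all windows. These are matches of letters and were not tested as sites.

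The array values are log2 processed signals, quantile normalized over the 6 arrays, and each fold change is the fetal minus the adult basal mean on this scale. A probe counted as well above background by the scanner software's own call on each spot. Probes below a low-signal boundary (5.95 on the log2 scale) in both populations were not tested, which left 9 SOX probes of 7 genes, and Sox2, Sox6 and Sox18 fell under it. Differences were tested with limma over all 20442 probes above the boundary, and a gene was called by its brighter probe where that probe changed at least 2-fold with an adjusted p (Holm) no higher than 0.05. Of the 7 SOX genes tested, 1 was called higher in fetal cells, Sox11, and none was called higher in adult basal cells, where 6.02% and 5.2% of the 15721 genes tested were called. At an unadjusted limma p under 0.05, 2 SOX genes were higher in fetal cells (Sox11, Sox9) and 2 in adult basal cells (Sox4, Sox12), a share near the 63.8% of all genes tested that reached such a p. The same 4 of 7 had populations that did not overlap, 2 in each direction, as did 68.4% of all genes tested (33.4% higher in fetal cells and 35% in adult basal cells). With Benjamini-Hochberg in place of Holm adjustment Sox11 was again the 1 gene called of the 7, beside 29.7% of all genes.

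**Figure D1:**
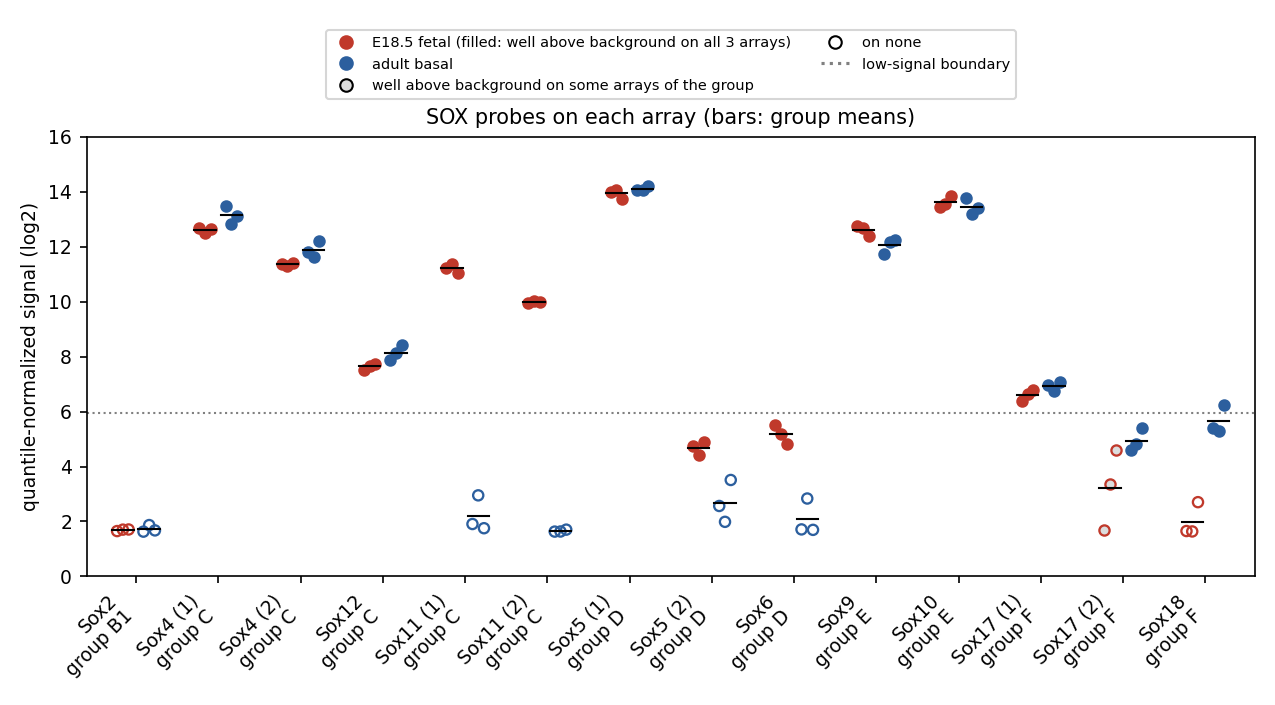
Quantile-normalized log2 signal of each of the 14 SOX probes (x axis, ordered by SOX group, with (1) the brighter and (2) the dimmer probe of a gene) on the 3 fetal and 3 adult basal arrays, where each point is 1 array and each short bar a population mean. Both Sox11 probes lie near 10 to 11 in fetal cells and near 2 in adult basal cells with open symbols, Sox6 and Sox18 each have open symbols in 1 population, and Sox4, Sox9, Sox10, Sox12 and the brighter Sox5 and Sox17 probes differ by less than 1.

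Sox11, a group C factor of embryonic progenitors and neurons, was high in fetal cells and not well above background in adult basal cells. Its brighter probe (A_55_P2094721) read 11.22, 11.38 and 11.03 on the log2 scale in fetal cells, against 1.91, 2.95 and 1.75 in adult basal cells. Its dimmer probe (A_52_P160955) read 9.967, 10.007 and 10.004 in fetal cells, against 1.63, 1.64 and 1.70 in adult basal cells. Every fetal array lay far above every adult basal array with both probes, which were well above background on 3 of 3 fetal arrays and on 0 of 3 adult basal arrays.

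Since the adult basal signal gives only a limit, the Sox11 difference is a lower bound. It sets the fetal mean against the adult basal mean of, on each array, the dimmest probe that still passed the background call or the probe's own value where that was higher. Sox11 was at least 154-fold higher in fetal cells by the brighter probe and at least 66.0-fold higher by the dimmer probe. The fitted log2 fold changes were 9.01 (SE 0.30) and 8.34 (SE 0.09), with Holm-adjusted p in limma of 1.8e-04 and 5.7e-08. In all, 84 tested genes were well above background on every fetal array and on no adult basal array, Sox11 among them, and 62 of these were called. Within the slide that held fetal replicate 1 with adult basal replicates 1 and 3, the 2 probes differed by 9.39 and 8.30 on the log2 scale, and within the other slide by 8.26 and 8.37, against adult basal signal that was not above background. The size of the fitted change depended on the handling of dim signal, with log2 values of 5.21 and 4.12 after a normexp background correction, while the call was kept. These are bulk samples, in which fewer cells expressing a gene and less RNA per cell cannot be told apart.

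Sox4, the group C gene known for progenitor survival and for transforming growth factor β responses in epithelia, was lower in fetal cells by less than 2-fold and did not pass the test. Its brighter probe read 12.68, 12.52 and 12.64 in fetal cells and 13.48, 12.82 and 13.12 in adult basal cells. Its dimmer probe read 11.37, 11.28 and 11.41 in fetal cells and 11.82, 11.64 and 12.20 in adult basal cells. With both probes all fetal arrays lay below all adult basal arrays, and the adult basal replicates spread more widely (SD 0.33 against 0.09 for the brighter probe). Both probes gave a log2 fold change of -0.53, with a 95% interval of -0.94 to -0.13 for the brighter and -0.90 to -0.17 for the dimmer, and a Benjamini-Hochberg p in limma of 0.0295 and 0.0197.

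Sox12, the third group C gene, which is widely expressed in the embryo, differed in the same direction as Sox4 and by a similar amount. It read 7.53, 7.67 and 7.75 in fetal cells and 7.86, 8.13 and 8.43 in adult basal cells, again with all fetal arrays below all adult basal arrays. The log2 fold change was -0.49 (95% interval -0.86 to -0.12, Benjamini-Hochberg p in limma 0.03). For neither Sox4 nor Sox12 did the interval reach a 2-fold change. A Benjamini-Hochberg p of at most 0.05, at any size of change, was reached by 60.3% of all genes tested. Left out 1 array at a time, this p ranged from 0.00424 to 0.095 for the brighter Sox4 probe and stayed at or below 0.05 only without adult basal replicate 2, from 0.00583 to 0.0685 for the dimmer Sox4 probe (over 0.05 without fetal replicate 1 or 2), and from 0.00882 to 0.0999 for Sox12 (at most 0.05 only without adult basal replicate 1 or 2). Within the 2 slides the brighter Sox4 probe differed by -0.62 and -0.25, and Sox12 by -0.62 and -0.42.

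**Figure D2:**
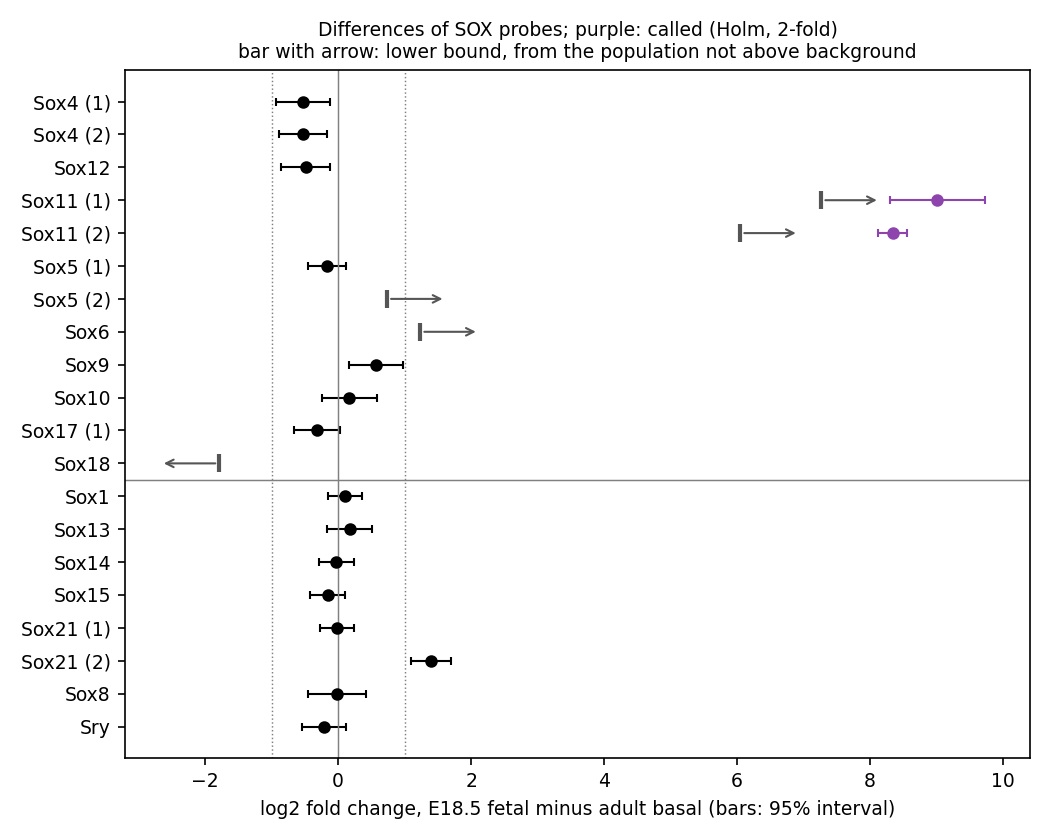
Log2 fold change (fetal minus adult basal) of every tested SOX probe, with the other SOX genes below the horizontal line. Above it are the probes of the 10 genes that were tested or had a bound. Sox2 and the dimmer Sox17 probe had neither and are not drawn. Points with bars are fitted values with their 95% interval, a short bar with an arrow is a lower bound on the size of a difference, and dotted lines mark 2-fold. Only the 2 Sox11 probes (purple, 9.01 and 8.34) were called, and the points of Sox4, Sox12, Sox9, Sox10, Sox5 (1) and Sox17 (1) all lie within 2-fold.

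Sox9, a group E factor of cartilage, hair follicle and mammary progenitors, was somewhat higher in fetal cells. It read 12.75, 12.69 and 12.40 in fetal cells and 11.72, 12.18 and 12.25 in adult basal cells. The lowest fetal array stood only slightly above the highest adult basal array. The log2 fold change was 0.57 (95% interval 0.16 to 0.97), a 1.48-fold difference that was not called, with a Benjamini-Hochberg p in limma of 0.0238. This p rose to 0.0831 without fetal replicate 1 and to 0.0779 without fetal replicate 2. The within-slide differences were 0.77 and 0.37.

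Sox10, the group E factor of neural crest, Schwann cells and glandular epithelium, did not differ beyond the spread between replicates. It read 13.46, 13.55 and 13.83 in fetal cells and 13.76, 13.18 and 13.39 in adult basal cells, and the populations overlapped. The log2 fold change was 0.17, and its 95% interval of -0.24 to 0.58 leaves room for a fetal level between 0.845 and 1.50 times the adult basal one. The difference was -0.11 within the first slide and 0.51 within the second.

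The group D genes gave signals that differed between probes. The brighter Sox5 probe read 14.00, 14.08 and 13.75 in fetal cells and 14.08, 14.07 and 14.20 in adult basal cells, which overlapped (log2 fold change -0.17, 95% interval -0.46 to 0.11). The dimmer Sox5 probe, below the boundary and not tested, read 4.73, 4.42 and 4.89 in fetal cells and 2.56, 1.99 and 3.51 in adult basal cells. It was well above background on the 3 fetal arrays and on 0 of 3 adult basal arrays, a difference of at least 1.66-fold. The 2 Sox5 probes thus disagreed, the brighter one overlapping and the dimmer one higher in every fetal array, and which transcripts each detects was not tested.

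Sox6, the close relative of Sox5 and its partner in cartilage, had a fetal signal close to the boundary. It read 5.52, 5.20 and 4.83 in fetal cells and 1.71, 2.84 and 1.70 in adult basal cells. It was well above background on all 3 fetal arrays and on no adult basal array, and every fetal array lay above every adult basal array. The difference was at least 2.35-fold and was in the same direction within both slides, and it was not tested in the main setting. With no low-signal filter, the limma fit gave a log2 difference of 3.10, against adult basal signal not above background, with a Benjamini-Hochberg p of 0.000703 and a Holm-adjusted p of 1.

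The group F genes pointed the other way or did not differ. Sox18, a factor of blood and lymphatic endothelium, read 1.65, 1.64 and 2.70 in fetal cells and 5.42, 5.28 and 6.24 in adult basal cells. It was well above background on all 3 adult basal arrays and on no fetal array, and the populations did not overlap. Sox18 was at least 3.45-fold higher in adult basal cells, and lower in fetal cells within both slides. It was not tested in the main setting, and with no low-signal filter the limma fit gave a log2 difference of -3.65, against fetal signal not above background, a Benjamini-Hochberg p of 5e-04 and a Holm-adjusted p of 1.

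Sox17, a factor of endoderm and arterial endothelium, gave overlapping populations with both probes. Its brighter probe read 6.38, 6.64 and 6.78 in fetal cells and 6.95, 6.73 and 7.08 in adult basal cells (log2 fold change -0.32, 95% interval -0.67 to 0.02). Its dimmer probe, not tested, read 1.69, 3.35 and 4.61 in fetal cells and 4.60, 4.82 and 5.40 in adult basal cells, and was well above background on 1 of 3 fetal arrays and on 3 of 3 adult basal arrays. Adult basal replicate 2 and fetal replicate 3 were the arrays that overlapped on the brighter probe, and on the dimmer one fetal replicate 3 reached just above adult basal replicate 1. Sox7, the other group F gene, also below the boundary, read 4.19, 3.63 and 4.96 in fetal cells and 5.88, 5.62 and 5.33 in adult basal cells, which did not overlap.

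Both sort gates removed CD31-positive cells, and the endothelial marker list was read beside the group F genes. Of its 12 genes, 10 were tested and none was called by Holm adjustment, while by Benjamini-Hochberg adjustment with 2-fold 5 were higher in adult basal cells and 0 in fetal cells, beside 13.9% and 15.8% of all genes tested. The 5 were VE-cadherin (Cdh5, log2 fold change -2.70), endomucin (Emcn, -1.79), Cldn5 (-1.40), Flt1 (-1.15) and Esam, which was well above background on 3 adult basal arrays and on 1 fetal array, so that its fitted value of -3.77 stood mostly against signal not above background. Egfl7 went the other way, with every fetal array above every adult basal array and a log2 fold change just under 2-fold (0.99, Benjamini-Hochberg p in limma 7.6e-04). Pecam1, which encodes CD31, overlapped between the populations (-0.14), as did the VEGF receptor Kdr (-0.04). Tek was well above background on 3 adult basal arrays and on no fetal array, and Tie1 on 2 and on none. The summed linear signal of the list was 15240, 13930 and 16100 in the fetal samples and 15650, 16400 and 14590 in the adult basal samples, and its brightest gene was Kdr. The part of endothelial RNA in the Sox18 and Sox7 values was not tested.

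Sox2, the group B1 factor of pluripotent cells, passed the background call on none of the 6 arrays. It read 1.65, 1.70 and 1.71 in fetal cells and 1.63, 1.87 and 1.68 in adult basal cells, so that no difference was detectable at this signal. Of the 12 genes listed as its partners and targets in pluripotent cells, 9 were tested. Of these, 0 were called by limma with Holm or with Benjamini-Hochberg adjustment and 2-fold, beside 11.2% and 29.7% of all genes tested. Among the brightest of them, Klf4 had a log2 fold change of 0.46, Nanog of -0.81, Dppa4 of -0.26 and Lin28a of -0.01. Fgf4 and Zfp42 passed the background call on none of the 6 arrays.

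None of the other SOX genes was called. Of 10 on the array, 7 were tested, by the brighter probe where there were 2. Among these, 0 passed limma with Holm or Benjamini-Hochberg adjustment and 2-fold, beside 11.2% and 29.7% of all genes tested. An unadjusted limma p under 0.05 was reached by 0 of them, beside 63.8% of all genes tested. Their median log2 fold change was -0.02, beside -0.04 over all genes tested. Sox13 of group D read 12.85 ± 0.08 (SD, n = 3) in fetal and 12.67 ± 0.25 in adult basal cells, and Sox8 of group E read 6.79 ± 0.31 and 6.80 ± 0.21. Sox1 of group B1 read 9.54 ± 0.05 and 9.44 ± 0.14 by its brighter probe. Sox14 (6.54 and 6.57) and Sox15 (6.48 and 6.64) overlapped between the populations, Sox3 passed the background call on no array, and Sox30 on 2 adult basal arrays. The 2 Sox21 probes disagreed, with log2 fold changes of -0.02 for the brighter and 1.40 for the dimmer, whose populations did not overlap (Benjamini-Hochberg p in limma 6.54e-05, Holm-adjusted p 0.18). Of 8 non-coding transcripts named for a SOX locus, 2 were on the array. Sox1ot was level (0.06), and Sox5os3 passed the background call on 1 array, fetal replicate 3.

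A probe well above background did not in itself show that a SOX transcript was present. The probe for Sry, a gene of the Y chromosome, was well above background on all 6 arrays of samples labelled female, at 6.42 ± 0.05 in fetal and 6.64 ± 0.24 in adult basal cells. Among other Y-linked genes, chosen after this value was seen, Ddx3y and Kdm5d passed that call on 0 of 6 arrays, Eif2s3y on 1 adult basal array and 1 of 2 Uty probes on 1 array of each population. The leukocyte genes Cd3e (12.07 in fetal and 12.13 in adult basal cells) and Csf1r (13.18 and 13.24) were likewise bright and level in cells sorted against CD45, and Ptprc, which encodes CD45, read 6.75 and 7.07. The part of such signal in the level SOX probes was not tested.

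**Figure D3:**
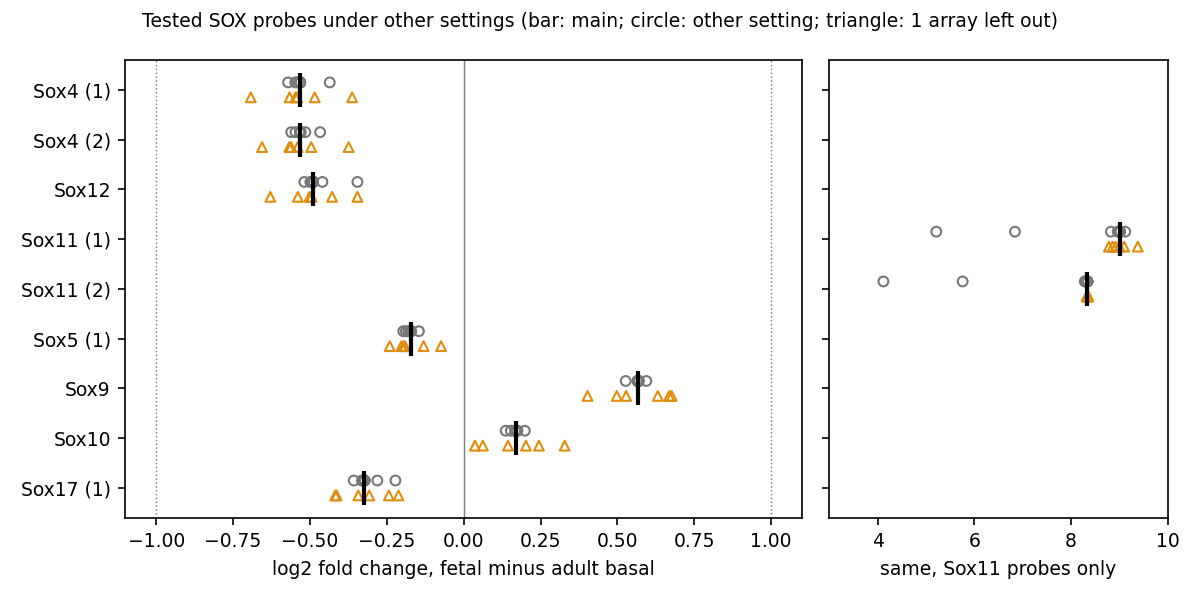
Log2 fold change (x axis, fetal minus adult basal) of the 9 tested SOX probes (y axis) in the main fit (bar), under other settings (circles) and with each array left out (triangles), with the Sox11 probes on their own scale in the right panel. No value crosses 0 and none outside Sox11 reaches the dotted 2-fold lines, and Sox11 is lowest after normexp correction (5.21 and 4.12).

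Genes linked to the SOX groups in other tissues were then read from the same fit. Of 11 genes listed as targets or developmental partners of group C factors, 8 were tested, 3 were called higher in fetal cells and 0 in adult basal cells, beside 6.02% and 5.2% of all genes tested, and the median log2 fold change was 0.96. The 3 were the microtubule regulator Stmn1 (log2 fold change 3.91, SE 0.09), the Hippo pathway factor Tead2 (2.58, SE 0.10) and the histone methyltransferase Ezh2 (2.21, SE 0.11). Stmn1 read 17.07, 17.20 and 17.17 in fetal cells and 13.28, 13.22 and 13.19 in adult basal cells, with no overlap. Among the others, Marcksl1 (1.29), Map2 (0.64) and Sdcbp (0.36) were not called. With Benjamini-Hochberg adjustment and 2-fold the counts were 4, with Marcksl1 added, and 0, beside 15.8% and 13.9%. The neuronal gene Map2 was higher on every fetal array, whereas Tubb3 (0.03) and Neurog2 (-0.04) were level and Stmn2 passed the background call on no array.

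Of 12 genes listed as Sox9 targets, known from cartilage apart from Amh of the testis, 7 were tested and 5 were called higher in fetal cells and 0 in adult basal cells, beside the same 6.02% and 5.2%, with a median log2 fold change of 3.80. Chondromodulin (Cnmd) was not well above background in adult basal cells and was at least 161-fold higher in fetal cells, with means of 11.28 and 2.45. The collagen genes Col9a1 (5.99, SE 0.23), Col2a1 (5.15, SE 0.26), Col9a3 (3.80, SE 0.12) and Col11a1 (2.80, SE 0.17) were the other called genes. Col2a1 read 11.53, 11.48 and 11.65 in fetal cells and 6.11, 7.04 and 6.06 in adult basal cells. Col9a2 (1.20) was not called, and neither was aggrecan (Acan), the main proteoglycan of cartilage, at -0.08. With Benjamini-Hochberg adjustment and 2-fold the counts were 6, with Col9a2 added, and 0, beside 15.8% and 13.9%. The 5 genes below the boundary were not tested. Of these, Col11a2 was well above background on all 6 arrays, Comp on 3 fetal and 2 adult basal arrays, Amh on 3 fetal arrays and 1 adult basal array and Matn1 on 1 fetal array, and the populations overlapped for each of these 4. The cartilage link protein gene Hapln1 passed the background call on no array. The cell source of these collagen transcripts was not tested.

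Of 13 genes known as Sox10 targets in neural crest and glia, 12 were tested and 2 were called higher in fetal cells and 0 in adult basal cells, beside 6.02% and 5.2% of all genes tested, with a median of 0.14. They were Mia (log2 fold change 4.34, SE 0.16), a secreted protein of cartilage and melanoma, and the neuregulin receptor Erbb3 (3.01, SE 0.15). The glial gene S100b (3.60) and the melanocyte gene Dct (2.27) passed 2-fold with Benjamini-Hochberg adjustment only, at 3.8e-04 and 0.001. In adult basal cells S100b was well above background on 1 of 3 arrays and Dct on 2 of 3, so that both fitted values stood partly against signal not above background. Mbp (-0.01), Egr2 (-0.29) and Gjb1 (0.02) were not called. Ret was well above background on the 3 adult basal arrays and on no fetal array, at least 2.84-fold higher in adult basal cells.

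The list of markers for neural crest, Schwann cells and melanocytes overlaps with this one, and of its 11 tested genes 1 was called higher in fetal cells, Erbb3, and 0 in adult basal cells, a share near the 6.02% and 5.2% of all genes tested. By Benjamini-Hochberg adjustment with 2-fold the counts were 3 (with S100b and Dct) and 0, beside 15.8% and 13.9%. Its summed linear signal was 9131, 9297 and 9196 in the fetal samples and 7081, 8301 and 8374 in the adult basal samples, with Mbp the brightest gene. Foxd3 and Tyrp1 passed the background call on no array. The part of such cells in the Sox10 signal was not tested.

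Of 12 genes tied to group F factors in vessels, 8 were tested, with 1 called higher in fetal cells, the receptor Notch1 (log2 fold change 1.87, SE 0.10), and 1 called higher in adult basal cells, the adhesion molecule Vcam1 (-3.61, SE 0.24), beside 6.02% and 5.2% of all genes tested. Mef2c (-3.66) stood just short of the call, with a Holm-adjusted p in limma of 0.053. By Benjamini-Hochberg adjustment with 2-fold 1 was higher in fetal cells, Notch1, and 4 in adult basal cells, which were Vcam1, Mef2c, Cdh5 and Cldn5, beside 15.8% and 13.9%. Without overlap of the populations, 1 of the 8 tested genes was higher in the fetal and 5 in the adult basal samples, beside 33.4% and 35% of all genes tested. The median of the list was -0.83.

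Of 13 genes listed for mammary stem and progenitor cells and read beside Sox9 and Sox10, 12 were tested. Of these, 2 were called higher in fetal cells and 3 in adult basal cells, beside 6.02% and 5.2% of all genes tested. Their median was -0.31. Elf5 (7.55, SE 0.16), a factor of luminal progenitors, and the receptor Kit (4.003, SE 0.16) rose in fetal cells. Elf5 read 12.60, 12.82 and 12.53 in fetal cells and 4.88, 5.001 and 5.41 in adult basal cells. Snai2 (-2.50, SE 0.14), the factor studied with Sox9 in mammary stem cells, and Procr (-4.85, SE 0.16), a surface marker of a basal stem cell population, were lower in fetal cells, as was Zeb1. With Benjamini-Hochberg adjustment and 2-fold the counts were 4 and 5, beside 15.8% and 13.9%, since Lgr5 (2.64) and Tspan8 (4.10) were higher in fetal cells and Zeb2 and Snai1 (-1.93) in adult basal cells by that rule only. Zeb1 and Zeb2 were each well above background on 1 of 3 fetal arrays, so that their fitted values (-2.55 and -2.70) stood mostly against signal not above background. Of the beta-catenin and TCF partners of SOX proteins, 5 of 6 were tested. By limma with Holm adjustment 0 of them were called, beside 11.2% of all genes tested. With Benjamini-Hochberg adjustment and 2-fold 1 was, Ctnnb1 (1.13), beside 29.7%.

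**Figure D4:**
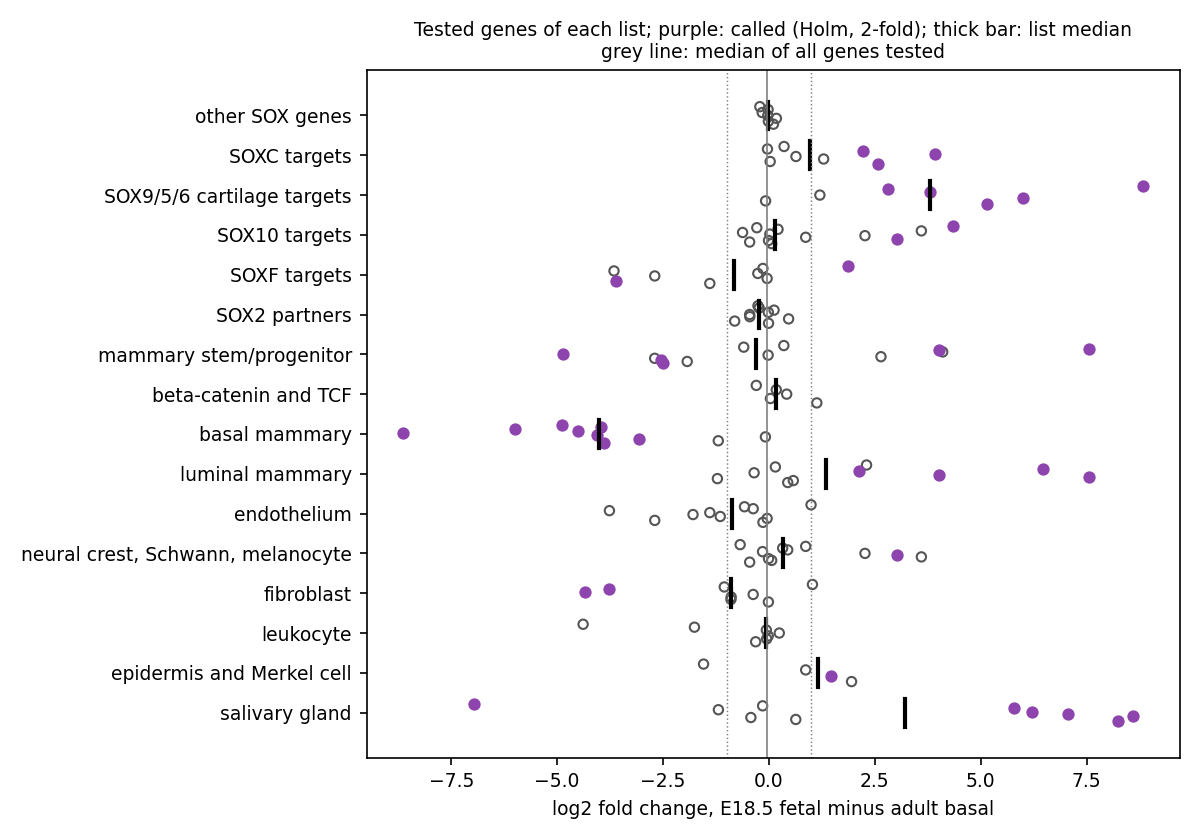
Log2 fold change (x axis, fetal minus adult basal) of each tested gene in the lists linked to SOX factors and in the cell type lists (y axis), with called genes in purple, list medians as thick bars and the median of all genes tested as a grey line. The cartilage list has its median at 3.80 and the basal mammary list at -4.01, while the other SOX genes have theirs at -0.02.

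The labels were read against markers of the 2 mammary lineages. Of 10 basal genes, 8 were called higher in adult basal cells and 0 in fetal cells, beside 5.2% and 6.02% of all genes tested, among them Myh11 (-8.63), Cnn1 (-6.01) and Krt5 (-3.90), while the basal regulator Trp63 was level (-0.08). Of 11 luminal genes, 10 were tested. Of these, 4 were called higher in fetal cells and 0 in adult basal cells, beside 6.02% and 5.2% of all genes tested. The 4 were Elf5, Foxa1 (6.46), Kit and Pgr (2.13). With Benjamini-Hochberg adjustment and 2-fold the counts were 5 (with Areg) and 1 (Krt19), beside 15.8% and 13.9%. Of the luminal genes not called, Krt18 (0.58), the brightest of the list, Krt8 (0.44) and Areg (2.30, past 2-fold with Benjamini-Hochberg adjustment) were higher on every fetal array. Krt19 (-1.22, past 2-fold with Benjamini-Hochberg adjustment), Prlr (-0.35) and, untested, Esr1 were higher on every adult basal array, with means of 4.74 and 5.80 for Esr1 in fetal and adult basal cells. Epcam was higher in fetal cells on every array (12.97 ± 0.10 against 11.09 ± 0.19, SD, n = 3), in the direction of the gates, and Itga6, which encodes CD49f, read 15.74 and 15.73. The BP-1 gene Enpep passed the background call on no array.

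Other cell type lists also moved between the populations, and their part in the SOX values was not tested. Among fibroblast genes, 2 of 8 were called higher in adult basal cells and 0 in fetal cells, beside 5.2% and 6.02% of all genes. The 2 were Dcn (-3.78) and Pdgfrb (-4.34). With Benjamini-Hochberg adjustment and 2-fold the counts were 3 (with Lum, -1.05) and 1 (Fbln1, 1.03), beside 13.9% and 15.8%. Col1a1 was level (-0.01). The summed linear signal of the list was 8249, 8387 and 10260 in the fetal samples and 17780, 19990 and 27770 in the adult basal samples, led by Col1a2. Of 10 salivary gland genes tested, 5 were called higher in fetal and 1 in adult basal cells, beside 6.02% and 5.2% of all genes. The 5 were Smr3a, Dcpp1, Dcpp2, Dcpp3 and Aqp5, and the 1 was Car6. Summed linear signals were 57980, 53620 and 60520 in the fetal and 32330, 25380 and 22520 in the adult basal samples, led by Lpo. Smr3a, at least 61.3-fold higher in fetal cells, was not well above background in adult basal cells, and Car6, at least 42.2-fold higher in adult basal cells, was not in fetal cells. With Benjamini-Hochberg adjustment and 2-fold the counts were 5 and 2, with Amy1 (-1.19) added in adult basal cells, beside 15.8% and 13.9%. Of the epidermis and Merkel cell genes, 4 were tested. Of these, 1 was called higher in fetal (Krt10, 1.47) and 0 in adult basal cells, beside the same 6.02% and 5.2%. The Benjamini-Hochberg counts with 2-fold were 2 (with Krt1, 1.95) and 1 (the Merkel cell gene Krt20, -1.54), beside 15.8% and 13.9%. Lor (0.87) was not called and was higher on every fetal array. Of 7 leukocyte genes 0 were called in either direction by limma with Holm adjustment, beside 11.2% of all genes. Benjamini-Hochberg adjustment with 2-fold gave 2 higher in adult basal cells and 0 in fetal cells, beside 13.9% and 15.8%. The 2 were Cd52 (-4.39, well above background on 2 of 3 fetal arrays) and Lyz2 (-1.76).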

How the data were processed

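The authors sorted the cells, checked RNA integrity, labelled RNA with Cy3 and hybridized 1 array per sample. The labels name the Low Input Quick Amp kit for labelling and the methods name a kit for whole transcripts, and this difference was not settled. The authors deposited the intensity of each spot as Agilent Feature Extraction 11.0.1.1 gave it, background corrected within an array and not normalized between arrays. They also deposited normalized log2 values, which the authors made by quantile normalization and which served here as an alternative.

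From the processed intensity, control spots and spots marked as outliers were left out, spots of a probe were averaged on the log2 scale and the 6 arrays were quantile normalized. Probes were named through accessions, matched without version to RefSeq (GRCm38.p6), since the files used here hold no gene name column, and 27229 of 55681 probes matched 20656 genes. The low-signal boundary was the midpoint between the lower pair of 3 k-means clusters (100 starts). The fit used limma 3.58.1 (lmFit, then eBayes) in R 4.3.3 over 20442 probes, with Holm or Benjamini-Hochberg adjustment over all of them. A gene was read by its brightest probe on average. The fit was tested on simulated data. Tables and plots used Python 3.11.15, pandas 2.3.3, numpy 2.4.6 and matplotlib 3.10.9.

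No spot was saturated, and between 76.4% and 83.3% of probes on an array were well above background. The 3 arrays per population limit the precision, and an exact permutation test of 3 against 3 arrays cannot give a 2-sided p below 0.1. The SOX genes and all lists were chosen with earlier results of these data known. The 10 SOX genes were named with all their probes, and of the lists the called genes and bright others. Genes nearest in profile were to be named for a called gene well above background on all 6 arrays, and there was none. Other settings tried were scaling to the 75th percentile, the deposited log2 values, normexp with an offset of 50, no filter or one on the background call, all probes without need of a gene, Benjamini-Hochberg adjustment, a trended and robust eBayes, an offset of 16 before log2, leaving out each array, and replicate number or slide as a block.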

Additional observations from a re-analysis of the deposited data

How the results depend on the processing

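Sox11 was called higher in fetal cells under all 17 other settings named in the processing, and no fold change of the 9 tested SOX probes changed sign or side of the threshold. An alternative chosen after seeing the data was Benjamini-Hochberg adjustment with no low-signal filter, so that all 10 SOX genes were tested. By it 2 SOX genes were called higher in fetal cells (Sox11, Sox6) and 1 in adult basal cells (Sox18). Of all 20656 genes, 2721 and 2397 were called. With the same adjustment and a filter on probes well above background, which left 22838 probes, the counts were 2 and 1. Over all genes they were 2646 and 2289, and their share of the genes tested was not computed. Sox6 and Sox18 passed this filter only through the population where they are high. The Benjamini-Hochberg p of the brighter Sox4 probe was 0.0534 without the filter and 0.0518 with slide as a block, and that of Sox12 was 0.0533 without the filter and 0.0739 with normexp. Over all genes tested, 947 were called higher in fetal and 817 in adult basal cells. These counts were 483 and 438 with no low-signal filter, 2484 and 2181 with Benjamini-Hochberg adjustment, 629 in fetal cells with slide as a block and 1244 in adult basal cells with trended, robust eBayes. With 1 array left out they ranged from 389 (without fetal replicate 2) to 834 and from 337 to 737. With replicate number as a block they were 546 and 471, with Sox11 still called. Arrays sharing a number had deviations correlated at -0.03, 0.09 and 0.05. Both arrays of replicate 1 were on the same slide, as were both of replicate 2. Whether a shared number marks a shared preparation was not tested. The causes of the changed counts were not tested either. Signal over background limits the values of Sox2, Sox6, Sox18 and the dimmer Sox5 and Sox17 probes, which the main setting did not test.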
